A study of Mus musculus with 18 samples.

Results

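Splenic CD4 T cells from lupus-prone NZB/W F1 mice were compared after weak stimulation of CD3 and CD28 and after no stimulation, both in the presence of control Ig. The libraries were chosen by their titles, 3 of control Ig with low TCR stimulation against 3 of control Ig with no TCR stimulation, which are 6 of the 18 libraries of the series, and all measured genes were described. The low-bead cultures held 0.1 bead per cell, each bead coated with anti-CD3 and anti-CD28 antibodies, and the no-bead cultures held 0. Both arms shared the isotype IgG1 at 25 µg/mL, IL-2 at 10 U/mL, 250000 cells per well and 48 hours of culture. The donors of all groups were female F1 hybrids of NZB and NZW mice, 21 to 27 weeks old, with a proteinuria of 30 to 100 mg/dL, and the CD4 T cells were enriched with an isolation kit, with no sort by subset or antigen stated. Set beside this comparison are 3 low-bead and 3 no-bead libraries with an anti-Ox40 antibody of class IgG1 at the same concentration, and 3 control Ig libraries with 1 bead per cell (high beads). Nothing in the labels ties a replicate to its own mouse, pool or well, and every p-value therefore reflects library-to-library spread alone, which may be technical.

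CD3 is the signalling part of the T cell receptor and CD28 its main costimulatory receptor, and crosslinking both on a bead stands in for an antigen-presenting cell. A T cell that receives this signal leaves quiescence, takes up more nutrients, copies its DNA and divides, while genes that keep resting cells alive and in circulation are switched down. IL-2 is a growth factor of activated T cells and sustains regulatory T cells, which carry its high-affinity receptor, so the no-bead cultures were not free of growth signals. Ox40, encoded by Tnfrsf4, is a costimulatory receptor that appears after activation.

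Levels are nRPKM, the unit the authors deposited, whose steps the labels do not state. It is read here as read numbers divided by gene length and library size with a further normalization. An nRPKM of 1 over 1 kb stood for 34.0 to 46.0 reads in the low-bead and 34.2 to 36.3 reads in the no-bead libraries, as worked out from microRNA hairpins, and these figures bear on counting error only. Between 11941 and 12170 genes had at least 1 nRPKM in each of the 6 libraries. Across genes, low-bead libraries correlated with each other at 0.989 to 0.993 and no-bead libraries at 0.994 (Pearson). Low-bead replicate 2 stood apart within its group, with 526 genes at least 0.5 on the log2 scale away from the mean of the other 2 libraries. This count was 298 and 324 in the other low-bead and 229 to 257 in the no-bead libraries. Its Malat1, an abundant nuclear RNA, was 173 nRPKM, against 453 and 435 in the other low-bead libraries and 247, 393 and 346 without beads. Replicate 3 of both groups carried more B cell RNA, with Ms4a1, which encodes CD20, at 0.370, 0.479 and 11.9 nRPKM with low beads and 0.426, 0.398 and 6.30 without. Low-bead replicates 2 and 3 also held lung transcripts, with the airway secretory gene Scgb1a1 at 16.4 and 18.2 nRPKM, while it was listed at 0 in low-bead replicate 1 and in all 3 no-bead libraries. The genes that define CD4 T cells were present in every library: Cd4 was 261, 252 and 244 with low beads and 326, 304 and 293 without, and Cd3e was 231, 249.7 and 229 with low beads and 262, 254 and 256 without.

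Weak stimulation changed most of the measured transcriptome, with large increases in genes of cell division and large decreases in myeloid and quiescence genes. In a single limma fit on log2(nRPKM + 1), 8152 of 13075 genes tested (62.3%) had an adjusted p under 0.05. Of all genes tested, 4260 (32.6%) were higher and 3892 (29.8%) lower with low beads, and the median change was 0.01. Most of these changes were small: the median was 0.42 among genes called higher and -0.35 among genes called lower, and 534 higher and 195 lower genes changed by at least 1 on the log2 scale. At a change of at least 2 the direction was lopsided, with 188 genes higher and 17 lower. The libraries of both groups did not overlap for 65.6% of genes tested, so that separation alone marks no gene out. The largest increases and decreases named below were picked among genes with separate libraries, so their separation was set by that choice.

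**Figure D1:**
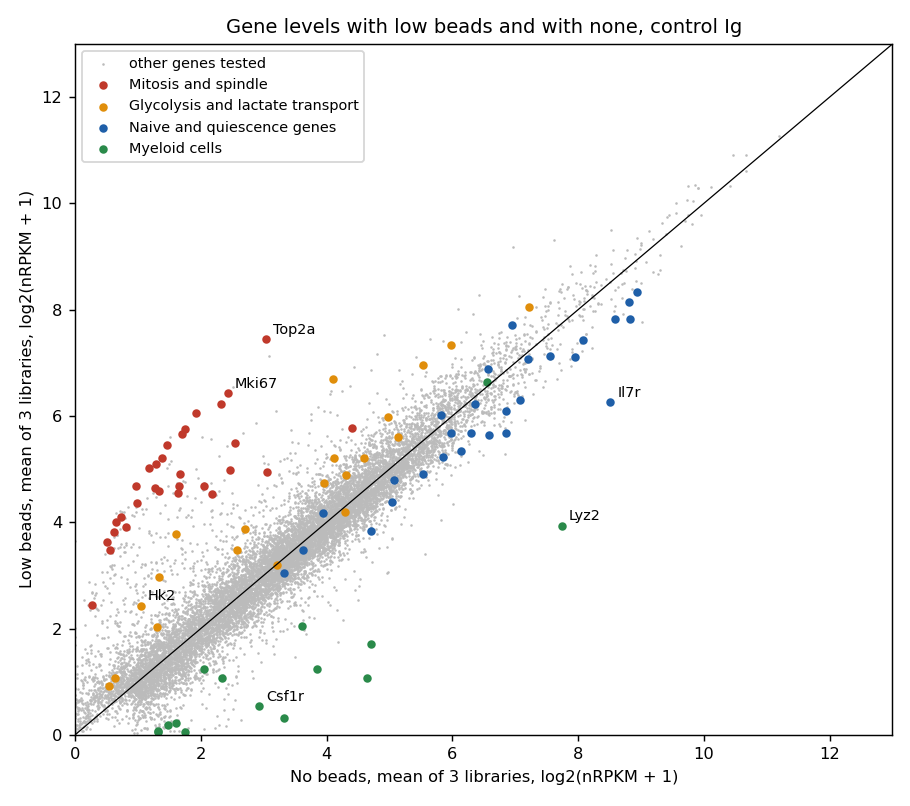
Mean level with low beads (vertical axis) against mean level with no beads (horizontal axis), both as log2(nRPKM + 1) over 3 control Ig libraries, for 13075 genes tested, with members of 4 lists in colour and a diagonal of equal levels. All 30 mitosis genes lie above the diagonal, 14 of 15 myeloid markers lie below it, and Il7r is the quiescence gene farthest below.

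Genes of mitosis rose more than those of any other list. All 30 members of the mitosis and spindle list rose, against 32.6% of all genes tested, with a median change of 3.30 and a range of 1.36 to 4.40. Top2a (chromosome 11, 98992947 to 99024199, GRCm38), the topoisomerase that untangles replicated chromosomes, was 149, 193 and 177 nRPKM in the low-bead libraries and 6.74, 7.75 and 7.11 in the no-bead libraries (log2 4.40, SE 0.10, adjusted p = 8.45e-15). Every low-bead library was far above every no-bead one. Mki67, the standard marker of cycling cells, was 84.3, 74.7 and 97.2 with low beads and 3.94, 4.81 and 4.39 without (log2 4.001, SE 0.10, adjusted p = 2.71e-14). Ube2c, a partner of the anaphase-promoting complex, averaged 65.1 ± 9.02 with low beads and 2.79 ± 0.0646 without (SD, n = 3 each; log2 4.12). Changes of similar size were seen for the mitotic cyclins Ccnb2 (4.01) and Ccna2 (3.90), the kinase Aurkb (3.99), the spindle proteins Nusap1 (3.96), Tpx2 (3.82) and Kif11 (3.80), the checkpoint kinase Bub1b (3.85) and Birc5 (3.70), the survivin gene. The smallest increase of the list was that of Cenpa, the histone variant of centromeres (1.36), which was already at 20.3 ± 1.61 nRPKM without beads.

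DNA replication genes rose as a whole by less. All 36 members were higher, against 32.6% of all genes tested, with a median of 1.499 and a range of 0.38 to 3.10. Mcm10, which helps to activate the replicative helicase, was 11.7, 13.9 and 12.3 nRPKM with low beads and 0.396, 0.664 and 0.712 without (log2 3.10, SE 0.12, adjusted p = 4.32e-12). Every low-bead library exceeded 11 nRPKM, while every no-bead one stayed under 1. The polymerase gene Pole (2.59), the helicase cofactors Cdc45 (2.57) and Gins2 (2.56), and the loading factor Cdc6 (2.54) were next, while the single-strand binding protein Rpa1 (0.40) and Gins4 (0.38) changed least. In the nucleotide synthesis list, 21 of 22 genes rose, against 32.6% of all genes tested, and none fell, with a median of 0.91. Rrm2, the S-phase subunit of ribonucleotide reductase, was 80.3, 107 and 89.8 with low beads and 4.28, 5.52 and 4.31 without (log2 4.03), and Tk1 (2.61), Tyms (2.15) and Rrm1 (2.13), which also make deoxynucleotides, followed. Impdh1, one of a pair of enzymes for guanine nucleotides, differed by -0.02 and was not called (adjusted p = 0.849).

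Entry into the cycle showed both directions. Of 24 G1 and S phase entry genes, 18 rose and 5 fell (median 0.94), against 32.6% higher and 29.8% lower over all genes tested. E2f1, which drives S-phase genes, was 12.6, 14.8 and 12.3 nRPKM with low beads and 0.976, 1.51 and 1.26 without (log2 2.67, SE 0.08, adjusted p = 2.17e-13), and E2f8 (3.17), E2f2 (2.64) and E2f7 (2.01) rose as well. Cyclin E1 (Ccne1) was 16.9, 21.3 and 20.3 with low beads and 4.28, 4.34 and 3.61 without (log2 2.01), while cyclin D2 (Ccnd2) changed by 0.43 and cyclin D3 (Ccnd3) by 0.68. Among inhibitors of cyclin-dependent kinases, Cdkn1b (p27), which holds resting T cells in G1, was 67.4, 66.9 and 67.9 with low beads and 117, 114 and 114 without (log2 -0.76, SE 0.07, adjusted p = 8.54e-08). Cdkn1a (p21, 1.01), Cdkn2c (p18, 1.91) and Cdkn2d (0.94) moved the other way.

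The promoters of these genes are shown because the division genes moved together and their start regions are known to carry shared elements. The windows run from 250 bases before to 50 after a gene's start in RefSeq (GRCm38.p6), and those below belong to the largest increase with a window in each of 3 lists and to the largest decrease among quiescence genes. Capitals mark matches on either strand to a CCAAT box (CCAAT), a CHR element (TTTGAA), an E2F site (TTTCCCGC, TTTCGCGC, TTTGCCGC or TTTGGCGC), a sterol element (TCACCCCAC or TCACCCCAT) or a KLF/SP box (GGGCGG). No match overlapped another. All 4 genes lie on the minus strand, and each sequence is written 5′ to 3′ on that strand, for Mcm10 (chr2:5012742-5013041), Top2a (chr11:99024140-99024439), the lanosterol demethylase gene Cyp51 (chr5:4104648-4104947) and Il7r (chr15:9529827-9530126).
Mcm10: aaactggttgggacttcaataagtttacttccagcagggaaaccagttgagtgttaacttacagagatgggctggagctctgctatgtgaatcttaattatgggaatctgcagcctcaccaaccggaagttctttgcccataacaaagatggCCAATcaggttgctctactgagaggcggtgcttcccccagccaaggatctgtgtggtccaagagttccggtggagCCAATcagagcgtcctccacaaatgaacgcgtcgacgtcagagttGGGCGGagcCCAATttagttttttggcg
Top2a: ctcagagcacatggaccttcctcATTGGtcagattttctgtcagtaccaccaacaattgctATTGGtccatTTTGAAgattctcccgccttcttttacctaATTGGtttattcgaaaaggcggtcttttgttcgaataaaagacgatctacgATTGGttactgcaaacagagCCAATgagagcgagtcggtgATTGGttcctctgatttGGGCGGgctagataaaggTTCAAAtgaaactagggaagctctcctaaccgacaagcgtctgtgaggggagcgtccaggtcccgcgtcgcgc
Cyp51: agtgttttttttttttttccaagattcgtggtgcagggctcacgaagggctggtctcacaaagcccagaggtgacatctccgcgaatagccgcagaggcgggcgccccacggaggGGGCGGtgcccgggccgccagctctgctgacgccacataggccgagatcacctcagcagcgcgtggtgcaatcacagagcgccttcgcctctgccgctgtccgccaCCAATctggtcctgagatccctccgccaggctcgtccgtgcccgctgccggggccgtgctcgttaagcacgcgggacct
Il7r: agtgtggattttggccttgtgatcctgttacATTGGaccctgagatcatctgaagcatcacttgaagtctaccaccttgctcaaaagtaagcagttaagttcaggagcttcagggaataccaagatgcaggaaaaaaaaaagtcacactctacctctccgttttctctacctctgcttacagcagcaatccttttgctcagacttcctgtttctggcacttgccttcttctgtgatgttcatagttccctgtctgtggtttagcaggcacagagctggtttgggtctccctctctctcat

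The Top2a window held 9 matches, 6 of them CCAAT boxes and 2 CHR elements, and the Il7r window held 1. In the shares below, a gene counted if any of its windows held the letters, while the share of all windows counts each window by itself. The CHR letters were found in 19 of 26 mitosis genes with a window (73.1%), 7 of 29 DNA replication genes (24.1%) and 3 of 25 quiescence genes. They were in 14.0% of the 8730 genes tested that have a window and in 17.9% of all 32851 windows of the table. E2F letters were in 13 of 29 DNA replication genes (44.8%), 2 of 26 mitosis genes (7.69%), none of 25 quiescence genes, 4.93% of genes tested and 2.26% of all windows. CCAAT was in 17 of 19 cholesterol and fatty acid genes (89.5%), 73.1% of mitosis genes, 62.1% of DNA replication genes and 56.0% of quiescence genes. It was in 43.0% of genes tested and 37.4% of all windows. GGGCGG was in 75.9% to 78.9% of the genes of these 4 lists, against 68.5% of genes tested and 35.7% of all windows. A sterol element was in 2 of 19 cholesterol and fatty acid genes (10.5%), 0.893% of genes tested and 0.791% of all windows. These matches describe letters within 300 bases and say nothing of factors bound there.

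**Figure D2:**
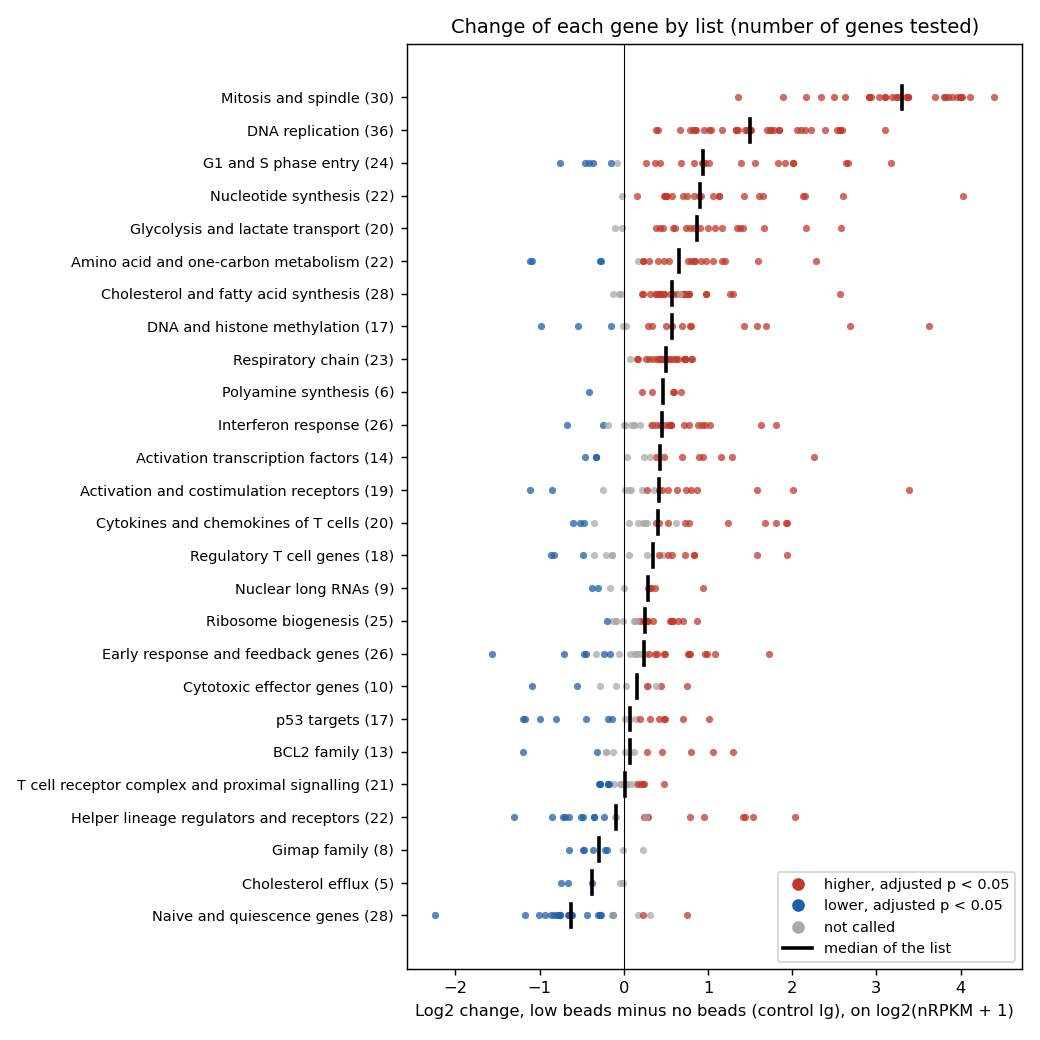
Log2 change (low minus no beads, control Ig, horizontal axis) of each gene tested in 26 lists (rows, with the number of genes), coloured by call, with a bar at each list's median and a line at 0. All 30 mitosis genes lie above 1, all 36 replication genes lie above 0, and 22 of 28 quiescence genes were called lower.

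Genes of the resting, circulating T cell fell. Of 28 naive and quiescence genes 22 fell, against 29.8% of all genes tested, 2 rose and 4 were not called, with a median of -0.63. Of the 2 that rose, Bach2 lost its call without any single low-bead library, among other settings. Il7r (chromosome 15, 9506159 to 9529941), the receptor chain for the survival cytokine IL-7, was 81.0, 72.3 and 73.5 nRPKM with low beads and 354, 404 and 331 without (log2 -2.24, SE 0.11, adjusted p = 4.06e-11). No low-bead library came near the lowest no-bead one. Klf2, the transcription factor that keeps T cells in circulation, was 215, 253 and 209 with low beads and 446, 495 and 422 without (log2 -1.01, SE 0.13, adjusted p = 7.06e-06), and its target S1pr1, the receptor for leaving lymphoid tissue, was 128, 147 and 139 with low beads and 235, 250.1 and 253 without (log2 -0.83). The antiproliferative genes Btg2 (-1.17), Btg1 (-0.77) and Tob1 (-0.87), the factors Tcf7 (-0.66) and Lef1 (-0.44) of the naive and memory state, and Txnip (-0.76), an inhibitor of glucose uptake, also fell.

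Not all homing genes followed. Ccr7, the receptor that brings T cells to lymph nodes, rose: it was 179, 246 and 198 nRPKM with low beads and 112, 130.2 and 124 without (log2 0.75, SE 0.12, adjusted p = 3.98e-05), with no overlap. Of 8 Gimap genes, GTPases of lymphocyte survival, 6 fell, against 29.8% of all genes tested, and none rose (median -0.30). Gimap5 (-0.65), Gimap3 (-0.48) and Gimap6 (-0.47) changed most.

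Among activation and costimulation receptors, 11 of 19 rose, 2 fell and 6 were not called (median 0.42), against 32.6% higher and 29.8% lower over all genes tested. Tnfrsf8, which encodes the activation receptor CD30, was 24.4, 19.0 and 15.1 nRPKM with low beads and 0.998, 0.903 and 0.889 without (log2 3.38, SE 0.14, adjusted p = 1.09e-11). Tfrc, the transferrin receptor that brings iron to growing cells, was 64.9, 64.7 and 68.3 with low beads and 14.9, 15.7 and 16.2 without (log2 2.01). Il2ra (chromosome 2, 11642792 to 11693194), the IL-2 receptor chain CD25, was 232, 258 and 229 with low beads and 81.4, 73.2 and 83.7 without (log2 1.58, SE 0.07, adjusted p = 4.25e-11). All 3 genes were well separated between the groups. Tnfrsf4 (chromosome 4, 156013595 to 156016613), which encodes Ox40, moved less, with 46.0, 40.03 and 40.3 with low beads and 32.2, 28.6 and 30.4 without (log2 0.46, SE 0.08, adjusted p = 7.55e-05), while its ligand gene Tnfsf4 changed by 0.32. The call of Tnfsf4 ended without low-bead replicate 2 (0.22, adjusted p = 0.11) or no-bead replicate 1 (0.26, adjusted p = 0.081). Tnfrsf18 (GITR) changed by 0.52 and Icos by 0.87.

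Several common activation markers did not separate the groups at 48 hours. Cd69 was 6.79, 7.88 and 7.74 nRPKM with low beads and 7.13, 6.73 and 7.11 without (log2 0.08, adjusted p = 0.431). Cd44 (0.01, adjusted p = 0.913), Ctla4 (0.06, adjusted p = 0.615) and Tnfrsf9, which encodes 4-1BB (0.22, adjusted p = 0.241), were likewise not called. Cd40lg, the helper signal to B cells, fell, with 34.0, 33.0 and 35.8 with low beads and 77.6, 80.3 and 68.4 without (log2 -1.11). Pdcd1, which encodes PD-1, also fell (-0.85). Parts of the receptor complex and its first signalling steps stayed near their no-bead levels, with a median of 0.01. Of these 21 genes 5 were higher and 6 lower, against 32.6% higher and 29.8% lower over all genes tested. The largest changes were those of Csk, the kinase that restrains Lck (0.48), and of Ptpn22 (-0.30).

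Feedback inhibitors of cytokine signalling rose and several immediate early genes fell. Of 26 early response and feedback genes 12 rose and 6 fell (median 0.23), against 32.6% higher and 29.8% lower over all genes tested. Cish, an inhibitor induced through STAT5, was 117, 129 and 102 nRPKM with low beads and 38.9, 30.7 and 33.6 without (log2 1.72, SE 0.09, adjusted p = 2.14e-10), and Socs3 (0.99), Socs2 (0.96) and Socs1 (0.79) rose too. Nr4a1, which responds to receptor signal strength, was 2.76, 2.94 and 3.23 with low beads and 1.21, 1.40 and 1.33 without (log2 0.78), and Egr3 changed by 0.76 and Egr2 by 0.49. The call of Egr2 ended without both replicates 3 (0.47, adjusted p = 0.0569), a setting chosen after seeing the data. Jun was 6.89, 8.12 and 4.81 with low beads and 26.4, 26.8 and 13.3 without (log2 -1.57), so that no low-bead library reached the lowest no-bead one. Ier3 (-0.71), Dusp1 (-0.47) and Ier2 (-0.45) fell as well.

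Of 14 transcription factors of activation, 8 rose and 3 fell (median 0.43), against 32.6% higher and 29.8% lower over all genes tested. Of the 3 that fell, Tox and Prdm1 lost their calls without low-bead replicate 2, among other settings. Irf4, whose level follows receptor signal strength, was 23.0, 24.5 and 17.98 nRPKM with low beads and 3.77, 3.27 and 4.18 without (log2 2.26, SE 0.12, adjusted p = 1.68e-10). Irf8 (1.29), Nfil3 (1.153), Ikzf3 (0.94), the AP-1 partner of Irf4 Batf (0.89) and Hif1a (0.69) also rose. Myc, which drives growth, was 67.2, 80.8 and 70.8 with low beads and 53.1, 55.4 and 58.4 without (log2 0.38), a modest change between groups that did not overlap. Bhlhe40, a regulator of cytokine output, fell by 0.33, with 13.3, 13.7 and 13.3 with low beads and 18.3, 16.8 and 16.3 without.

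Of 20 cytokine genes tested, 10 rose, 3 fell and 7 were not called (median 0.40), so that the share called was close to the 62.3% of all genes tested. Il13, a type 2 cytokine, was 2.80, 6.36 and 3.17 nRPKM with low beads and 0.281, 0.243 and 0.320 without (log2 1.93, SE 0.23, adjusted p = 2.38e-06), and Il9 was 2.23, 5.41 and 1.86 with low beads and 0.0530, 0 and 0.309 without (log2 1.81, SE 0.41, adjusted p = 0.00128). Ebi3, a subunit of IL-27 and IL-35, was 15.7, 14.3 and 14.2 with low beads and 3.51, 2.56 and 3.30 without (log2 1.94). The groups were separate for each of the 3, but low-bead replicate 2 was well above the other low-bead libraries for Il13 and Il9. Lif (1.68), Lta (1.24) and Il21 (0.77) rose, and Tnf was 17.5, 17.1 and 17.8 with low beads and 12.1, 11.4 and 12.04 without (log2 0.52). Il10 was called higher (0.73), a call that ended without low-bead replicate 1 (0.61), low-bead replicate 3 (0.72), no-bead replicate 2 (0.67) or no-bead replicate 3 (0.72). Ltb, which resting T cells make in quantity, fell, with 386, 437 and 391 with low beads and 611, 638 and 594 without (log2 -0.60). Il2 itself was near the floor in both groups, at 0.229, 0.148 and 0.310 with low beads and 0.179, 0.216 and 0.145 without (adjusted p = 0.838). Neither Ifng (0.17, adjusted p = 0.555) nor Il4 (0.22, adjusted p = 0.141) was called, and their libraries overlapped. Il3, Il17a, Il17f and Il22 were too low to be tested.

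Of 22 regulators and receptors of helper lineages, 9 rose and 10 fell (median -0.10), against 32.6% higher and 29.8% lower over all genes tested. The skin and tissue homing receptors Ccr4 and Ccr8, which mark type 2 and regulatory cells, changed by 2.04 and 1.44; Ccr4 was 16.8, 18.6 and 16.9 nRPKM with low beads and 3.35, 3.38 and 3.76 without. Il4ra (1.53) and Il12rb1 (1.41), receptor chains for IL-4 and for IL-12 and IL-23, rose too. Il23r, a receptor chain of Th17 cells, was 0.393, 0.328 and 0.331 with low beads and 1.20, 1.31 and 1.16 without (log2 -0.72, SE 0.14, adjusted p = 0.000251), and Rora (-0.70) and Ccr6 (-0.65), which Th17 cells also express, and Il18r1 (-0.85) fell too. The Th1 factor Tbx21 (0.24) and the Th2 factor Gata3 (0.27) were called higher by small amounts. Without no-bead replicate 3 the change of Tbx21 was 0.17 (adjusted p = 0.0512), and that of Gata3 ended its call without low-bead replicate 2 (0.16, adjusted p = 0.202) or without any single no-bead library (0.26 to 0.28). Bcl6, the factor of follicular helper cells, was 9.90, 11.1 and 9.59 with low beads and 8.21, 7.59 and 8.72 without (log2 0.29, SE 0.08, adjusted p = 0.00775), while the follicular homing receptor Cxcr5 changed by -0.51.

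Of 18 regulatory T cell genes tested, 8 rose, 3 fell and 7 were not called (median 0.35), a share called near the 62.3% of all genes tested. Foxp3 (chromosome X, 7579676 to 7595243), the lineage factor, was 80.3, 54.2 and 67.3 nRPKM with low beads and 99.1, 83.3 and 97.6 without (log2 -0.48, SE 0.20, adjusted p = 0.0445). Its groups did not overlap, but the call ended without low-bead replicate 2 (-0.34, adjusted p = 0.189), low-bead replicate 3 (-0.49), no-bead replicate 1 (-0.44) or no-bead replicate 3 (-0.45), and with no filter on low genes (adjusted p = 0.0958). Ikzf2 (Helios) was not called (-0.36, adjusted p = 0.142). Nrp1 (-0.87) and Nt5e (-0.83), surface proteins of many regulatory cells, fell. Ebi3 and Il2ra as above and Capg (0.83), which activated conventional T cells can also express, rose, and so did Folr4, the surface receptor FR4 (0.83). Which cells these changes came from was not tested. Of 10 cytotoxic effector genes 3 rose and 2 fell, no more than the 32.6% and 29.8% of all genes tested, the lower ones being Fasl (-1.09) and Prf1 (-0.55), which encode the death ligand and perforin. Gzmb changed by 0.29 and was not called (adjusted p = 0.0503).

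**Figure D3:**
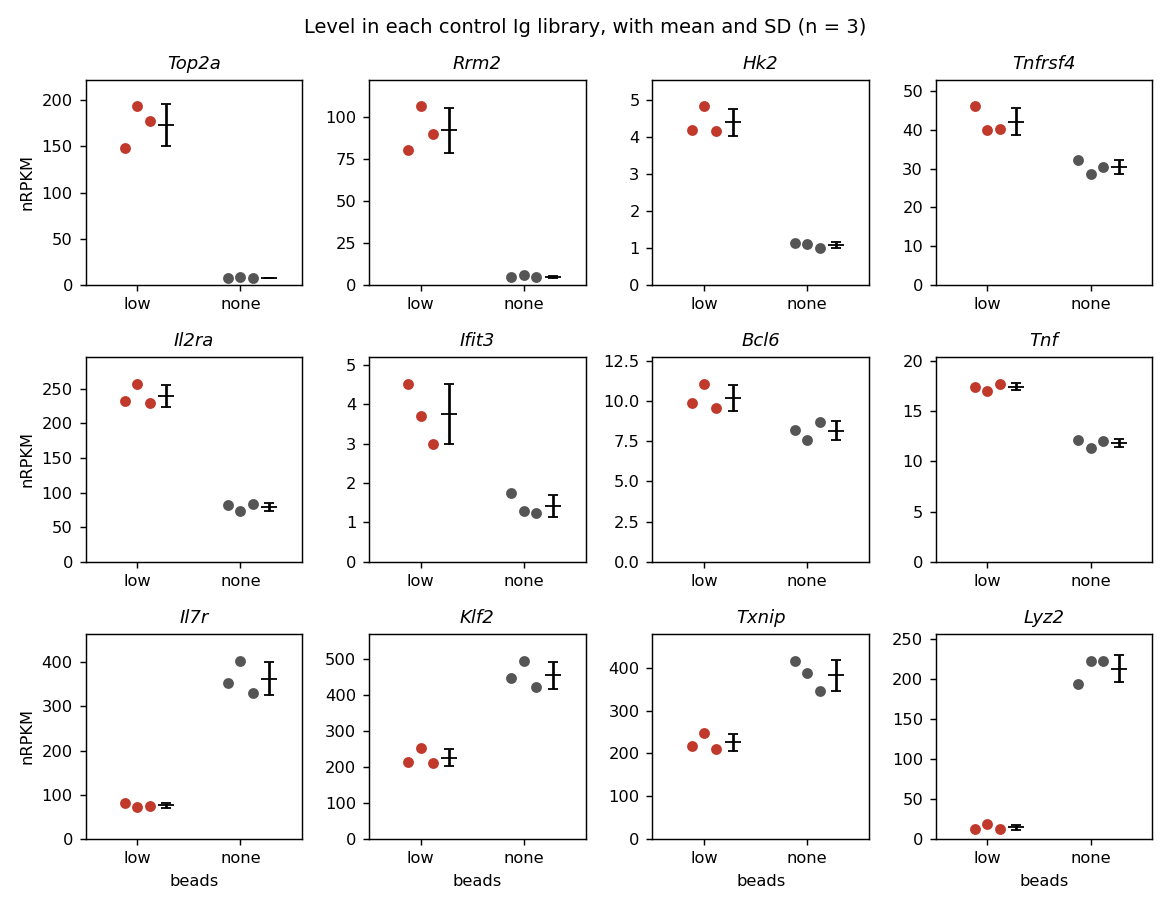
nRPKM (vertical axes, from 0) of 12 genes in the 3 low-bead and 3 no-bead control Ig libraries, 1 point per library, with mean and SD beside the points. The groups do not overlap in any of the 12 panels: 8 genes from Top2a to Tnf are higher with low beads, and Il7r, Klf2, Txnip and Lyz2 are lower.

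Genes of sugar use rose broadly. In the glycolysis and lactate transport list 18 of 20 genes rose, against 32.6% of all genes tested, and none fell (median 0.87). Tpi1, a mid-pathway enzyme, was 90.5, 117 and 98.7 nRPKM with low beads and 17.0, 16.4 and 14.9 without (log2 2.59, SE 0.07, adjusted p = 4.93e-14). Slc16a3, which exports lactate, was 11.4, 13.5 and 13.1 with low beads and 2.05, 2.08 and 1.99 without (log2 2.16), and Hk2, the inducible hexokinase, was 4.19, 4.82 and 4.16 with low beads and 1.12, 1.10 and 0.979 without (log2 1.38). Each was separate in all libraries. Aldoc (1.67), Pkm (1.42) and Ldha (1.35) followed, while the glucose transporter gene Slc2a1 changed by 0.59 and its relative Slc2a3 by -0.11 (adjusted p = 0.457). Gapdh, Pgk1 and Pgam1, abundant enzymes in most cells, stood at only 3.09 ± 0.439, 1.09 ± 0.0922 and 0.894 ± 0.186 nRPKM with low beads, so their values are uncertain. These genes have near-identical copies elsewhere in the genome, and whether that bears on their values was not tested.

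Sterol and fatty acid synthesis rose as well, with 24 of 28 genes higher, against 32.6% of all genes tested, and none lower (median 0.57). The desaturase gene Scd2 led the list, with 21.5, 27.3 and 21.5 nRPKM with low beads and 3.30, 2.88 and 3.08 without (log2 2.57, SE 0.09, adjusted p = 1.06e-12). Sqle (1.30), an enzyme of the cholesterol pathway, also rose. Cyp51, which acts further along it and whose promoter is printed above, was 14.5, 16.9 and 14.1 with low beads and 5.50, 6.16 and 5.60 without (log2 1.26), with no overlap. Of the regulators, Srebf1 rose (0.44) and Srebf2 was not called (-0.05, adjusted p = 0.346). Of 5 genes listed with cholesterol efflux 3 fell, against 29.8% of all genes tested, and none rose. Those that fell were Mylip (-0.74), Nr1h3 (-0.67) and Nr1h2 (-0.38), a ubiquitin ligase and the 2 LXR receptors. The transporter genes of the list, Abca1 and Abcg1, were not called.

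Of 22 amino acid and one-carbon genes 17 rose and 4 fell (median 0.65). For this list and the others of this paragraph, the shares over all genes tested were 32.6% higher and 29.8% lower. Psat1, an enzyme of serine synthesis, was 59.5, 72.7 and 61.5 nRPKM with low beads and 12.99, 12.7 and 11.7 without (log2 2.28, SE 0.07, adjusted p = 1.31e-13), and Asns (1.59), Phgdh (1.20), Mthfd2 (1.17) and the leucine transporter gene Slc7a5 (1.05) rose. The 4 that fell were Trib3, at 24.8, 26.7 and 24.4 with low beads and 54.2, 59.0 and 55.3 without (log2 -1.12), the cystine transporter gene Slc7a11 (-1.09), Ddit3 (-0.28) and Atf4 (-0.27); Atf4 is the factor that drives many of the synthesis genes under amino acid shortage. Of 6 polyamine genes 5 rose and 1 fell, with Odc1 at 0.60 and the catabolic gene Sat1 at -0.41. Ribosome biogenesis moved less, with 17 of 25 genes higher, 1 lower and a median of 0.25. In the respiratory chain, 22 of 23 genes rose and none fell (median 0.50), with Cox5a (0.81), Atp5c1 (0.80) and Atp5b (0.73) changing most among them.

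Of 13 BCL2 family genes 5 rose and 2 fell (median 0.07), against 32.6% higher and 29.8% lower over all genes tested, so the counts do not set the family apart. The survival genes Bcl2l1 (BCL-XL), at 9.87, 13.8 and 11.1 nRPKM with low beads and 4.31, 3.96 and 4.04 without (log2 1.29, SE 0.10, adjusted p = 1.57e-08), and Bcl2, at 54.4, 65.9 and 54.9 with low beads and 27.2, 27.1 and 28.2 without (log2 1.06), rose. So did the pro-apoptotic Bak1 (0.80) and Bad (0.45). Bbc3 (PUMA), another killer protein of the family, fell, with 3.21, 2.68 and 2.71 with low beads and 7.48, 7.83 and 8.18 without (log2 -1.19), and Bcl2l11 (BIM) was not called (-0.13, adjusted p = 0.253). Of 17 p53 targets 7 rose and 7 fell (median 0.07), Cdkn1a (1.01) and Phlda3 (0.71) among the higher and Bbc3, Btg2, Gadd45a (-0.9996) and Sesn1 (-0.81) among the lower.

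Of 26 interferon response genes 16 rose, 2 fell and 8 were not called (median 0.46). Over all genes tested, 32.6% were higher and 29.8% lower. The nucleic acid sensor gene Zbp1 was 84.5, 96.0 and 76.4 nRPKM with low beads and 28.1, 26.9 and 25.7 without (log2 1.63, SE 0.13, adjusted p = 3.67e-08), and Irf9, a transcription factor of interferon signalling, was 41.0, 46.0 and 43.5 with low beads and 22.2, 21.1 and 19.5 without (log2 1.02). The groups were separate for both genes. The antiviral gene Ifit3 changed by 0.96 and Rtp4 by 0.88, whereas Ifit2 fell, with 18.3, 20.7 and 19.2 with low beads and 31.3, 31.8 and 31.4 without (log2 -0.67). Isg15 was called as well (0.38), and that call ended without low-bead replicate 2 (0.28), low-bead replicate 3 (0.41), no-bead replicate 2 (0.39) or no-bead replicate 3 (0.28). Classical members Mx1, Mx2, Rsad2 and Ifi44 were too low to be tested, and Irf7 was not called (0.33, adjusted p = 0.0722).

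Genes that copy or write chromatin marks rose with the division genes. Of 17 genes of DNA and histone methylation 12 rose and 3 fell (median 0.57), against 32.6% higher and 29.8% lower over all genes tested. Uhrf1, which brings the maintenance methyltransferase to new DNA, was 32.5, 39.1 and 32.0 nRPKM with low beads and 1.68, 2.07 and 1.89 without (log2 3.62, SE 0.09, adjusted p = 1.53e-14). Its partner Dnmt1 was 91.2, 104 and 92.3 with low beads and 32.9, 36.3 and 35.9 without (log2 1.43), and the remodeler Hells (2.69) and the Polycomb enzyme Ezh2 (1.58) rose. Ezh1, the Polycomb enzyme of resting cells (-0.54), and the demethylases Kdm6b (-0.99) and Kdm6a (-0.15) fell.

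RNA of cells other than CD4 T cells also differed between the groups. Of 15 myeloid markers tested 14 fell, against 29.8% of all genes tested, and none rose (median -1.56). The summed level of the list was 121 to 132 nRPKM with low beads and 388 to 426 without. This list was chosen with earlier results of these data known, and its members Clec4n, Pla2g7 and Gpnmb are among the largest decreases. Its count, median and sum are therefore not independent of these data. Lyz2 (chromosome 10, 117277541 to 117282272), the lysozyme of macrophages and monocytes, was 12.8, 18.02 and 12.1 nRPKM with low beads and 194, 222 and 223 without (log2 -3.82, SE 0.32, adjusted p = 5.26e-08). The lectin gene Clec4n was 1.31, 1.18 and 0.802 with low beads and 22.8, 25.0 and 24.3 without (log2 -3.59), and Csf1r, the receptor macrophages need to survive, was 0.475, 0.497 and 0.382 with low beads and 6.21, 6.91 and 6.73 without (log2 -2.39). For these genes the groups stood far apart, but separate groups were a condition for naming the largest decreases. The complement genes C1qa and C1qc were each listed at 0 in 1 low-bead library and at 1.16 nRPKM or more in every no-bead one, and only Ctss, which T cells express too, was not called (0.09, adjusted p = 0.233). In these bulk samples fewer cells of a type and less RNA of that type per cell cannot be told apart, and the part that this difference has in the other decreases was not tested.

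Of 5 NK cell markers 4 fell (median -0.89), against 29.8% of all genes tested, led by Tyrobp (-2.44), which myeloid cells share, and Klrd1 (-1.93). The other, Gzma, rose (0.44), a call that ended without low-bead replicate 2 or any 1 no-bead library, among other settings. Of 10 B cell markers 1 was called, Blk (-0.68), a call that ended without low-bead replicate 1 (-0.44), low-bead replicate 2 (-0.54), no-bead replicate 2 (-0.69) or no-bead replicate 3 (-0.56). The summed level of B cell markers was 7.58 to 59.7 nRPKM with low beads and 10.5 to 40.01 without, with replicate 3 highest in both groups. Igj, the immunoglobulin joining chain of plasma cells, was 44.0, 38.6 and 30.3 with low beads and 103, 88.8 and 75.1 without (log2 -1.22), while Xbp1, listed with plasma cells and also active in stimulated T cells, rose by 1.68. Among 9 CD4 T cell markers 3 rose and 2 fell (median 0.03). For all marker lists of this paragraph, the shares over all genes tested were 32.6% higher and 29.8% lower. Cd8a stayed at or below 0.33 nRPKM in all 6 libraries. The summed level of the 2 CD8 markers, Cd8a and Cd8b1, was above that of Cd8a alone and overlapped between the groups. It was 5.1 to 6.8 nRPKM with low beads and 5.5 to 6.6 without. The 1 of them tested was not called (-0.03). Of 8 platelet markers 3 fell, among them Pf4 (-0.70) and Itga2b (-0.53), and 1 rose, the integrin gene Itgb3 (0.95), and of 2 dendritic cell markers tested Itgax fell (-1.16) and Batf3 rose (0.48). Without both replicates 3, the libraries highest in B cell markers, 7128 genes were called.

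Neutrophil and lung markers moved with the groups as well. Of 4 neutrophil markers tested 3 fell, against 29.8% of all genes tested, and none rose (median -0.63). The summed level of the list was 10.2 to 17.1 nRPKM with low beads and 18.1 to 30.7 without. These calls rested on single libraries: S100a9 (-1.03), Mpo (-0.71) and Elane (-0.54) each lost theirs without low-bead replicate 1 (-0.78, -0.58 and -0.38). S100a9 and Elane also lost it without low-bead replicate 2 (-0.99 and -0.54) or no-bead replicate 3 (-0.71 and -0.57), and Mpo and Elane without no-bead replicate 2 (-0.50 and -0.34). Of 6 lung markers tested 2 were called higher, against 32.6% of all genes tested. They were Scgb1a1 (2.80) and the surfactant gene Sftpc (1.64), both listed at 0 in low-bead replicate 1. The call of Scgb1a1 ended without low-bead replicate 2 (2.13, adjusted p = 0.0608) or 3 (2.06, adjusted p = 0.0615). That of Sftpc ended without low-bead replicate 2 (1.24, adjusted p = 0.132), low-bead replicate 3 (1.22, adjusted p = 0.133) or any single no-bead library (1.64 each, adjusted p of 0.0631 to 0.0639). The other libraries with beads held lung transcripts too: the median change of the 6 markers from the control Ig no-bead mean was 0.90, 2.41 and 1.38 in the high-bead libraries of control Ig and 1.85, 1.29 and 3.17 in the low-bead libraries of anti-Ox40, and it was 0 in the no-bead libraries of both antibodies. All 6 markers were called higher with low beads under anti-Ox40. Their part in the other results was not tested.

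The high-bead libraries show which of these changes grew with more beads. They are compared here with the same low-bead libraries, so the 2 steps share samples. From low to high beads 5231 genes (40.0%) were higher and 4252 (32.5%) lower. The mitosis list had most of its change at the first step, with a median of 3.30 for low minus none and 0.66 for high minus low. Glycolysis had the larger part at the second, with 0.87 for low minus none and 1.81 for high minus low. Irf4 averaged 3.74 ± 0.456 nRPKM without beads, 21.8 ± 3.41 with low beads and 173 ± 19.8 with high beads (SD, n = 3 each). Gzmb, not called at low beads, averaged 11.2 ± 1.40, 13.8 ± 1.55 and 186 ± 12.3 nRPKM over the same doses (high minus low 3.66, adjusted p = 1.97e-12).

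Some genes that rose at low beads fell at high beads. Of the 26 interferon response genes 14 were lower and 4 higher at high than at low beads, and Ifit3 averaged 1.42 ± 0.276 nRPKM without beads, 3.75 ± 0.766 with low and 0.343 ± 0.0866 with high beads (high minus low -1.81, adjusted p = 3.89e-09). Bcl6 averaged 8.17 ± 0.563, 10.2 ± 0.797 and 2.60 ± 0.294 over the doses (high minus low -1.64, adjusted p = 2.08e-10). Tnf averaged 11.8 ± 0.417, 17.4 ± 0.349 and 10.0 ± 0.147 (high minus low -0.74), and Eomes, a factor of memory and cytotoxic cells, 1.46 ± 0.347, 3.74 ± 0.389 and 0.898 ± 0.151 (high minus low -1.32). The opposite path was taken by Bhlhe40, which averaged 17.1 ± 1.07 without beads, 13.4 ± 0.242 with low and 64.6 ± 2.48 with high beads, and by Atf4, at 129.6 ± 3.18, 108 ± 7.11 and 227 ± 18.9.

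**Figure D4:**
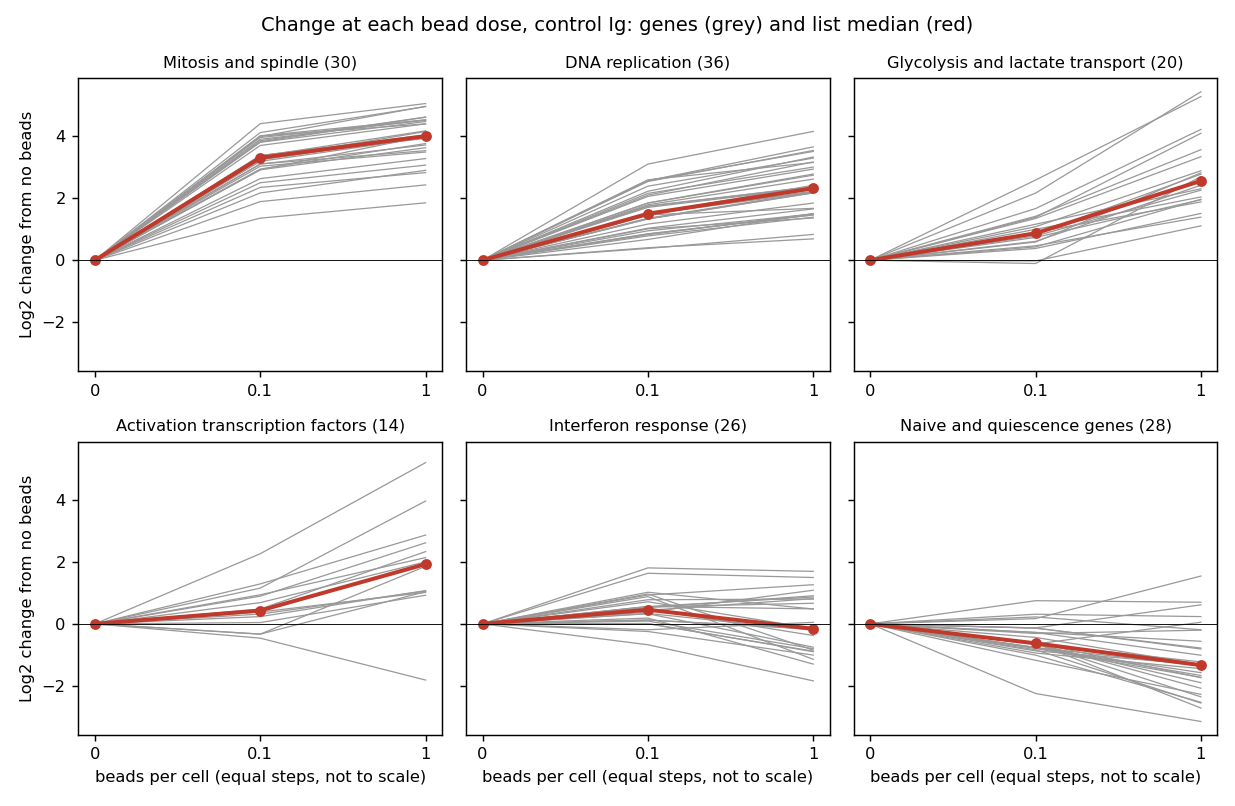
Log2 change from the no-bead mean (vertical axis) at 0, 0.1 and 1 bead per cell (horizontal axis, equal steps and not to scale) in control Ig for 6 lists, with a grey line for each gene and the list's median in red. The mitosis median reaches 3.30 by 0.1 bead and 4.002 at 1, the glycolysis median 0.87 and 2.56, and the interferon median 0.46 and -0.16.

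With the anti-Ox40 antibody the bead response was measured again in 6 separate libraries. Low against no beads called 9260 genes there (70.8%), 4854 higher and 4406 lower, and across the 13075 genes tested, which are not independent, the changes correlated with those in control Ig at 0.94 (Pearson). The response differed between antibodies for 35 genes (0.268%), 34 with a more positive change under anti-Ox40 and 1 with a less positive one, and 2307 genes had an unadjusted p under 0.05. Glycolysis supplied 9 of the 35, with a list median of 1.29 under anti-Ox40 and 0.87 in control Ig. Slc16a3 averaged 28.4 ± 1.63 nRPKM with low beads and 2.26 ± 0.179 without under anti-Ox40, against 12.6 ± 1.10 with low beads and 2.04 ± 0.0452 without in control Ig (difference of log2 changes 1.01, SE 0.08, adjusted p = 3.89e-05). Hk2 averaged 9.62 ± 0.896 with low beads and 1.24 ± 0.244 without under anti-Ox40, against 4.39 ± 0.372 with low beads and 1.06 ± 0.0747 without in control Ig (difference 0.87, adjusted p = 0.00135). Bhlhe40 rose with low beads under anti-Ox40 (0.47) and fell in control Ig (-0.33), a difference of 0.81 (adjusted p = 0.000283).

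The number of such genes rested on 1 library. Without low-bead replicate 2 of control Ig, which stood apart from its group, 1866 genes differed, 1160 with a more positive and 706 with a less positive change under anti-Ox40 (14.3% of genes tested), and all of the 35 were among them. Glycolysis then counted 13 of 20 genes with a more positive change, the respiratory chain 16 of 23, nucleotide synthesis 10 of 22 and amino acid genes 10 of 22, while mitosis counted 0 with a more and 2 with a less positive change of 30. Leaving out any other single library of the 4 groups gave between 19 and 67 genes, with 67 without anti-Ox40 no-bead replicate 3, 19 without control Ig no-bead replicate 2 and 20 to 23 without control Ig low-bead replicate 3, control Ig no-bead replicate 1, anti-Ox40 low-bead replicate 2 or anti-Ox40 no-bead replicates 1 and 2. Tnfrsf4 itself responded alike in direction, with 0.58 under anti-Ox40 and 0.46 in control Ig, a difference of 0.12 (SE 0.11, adjusted p = 0.561).

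**Figure D5:**
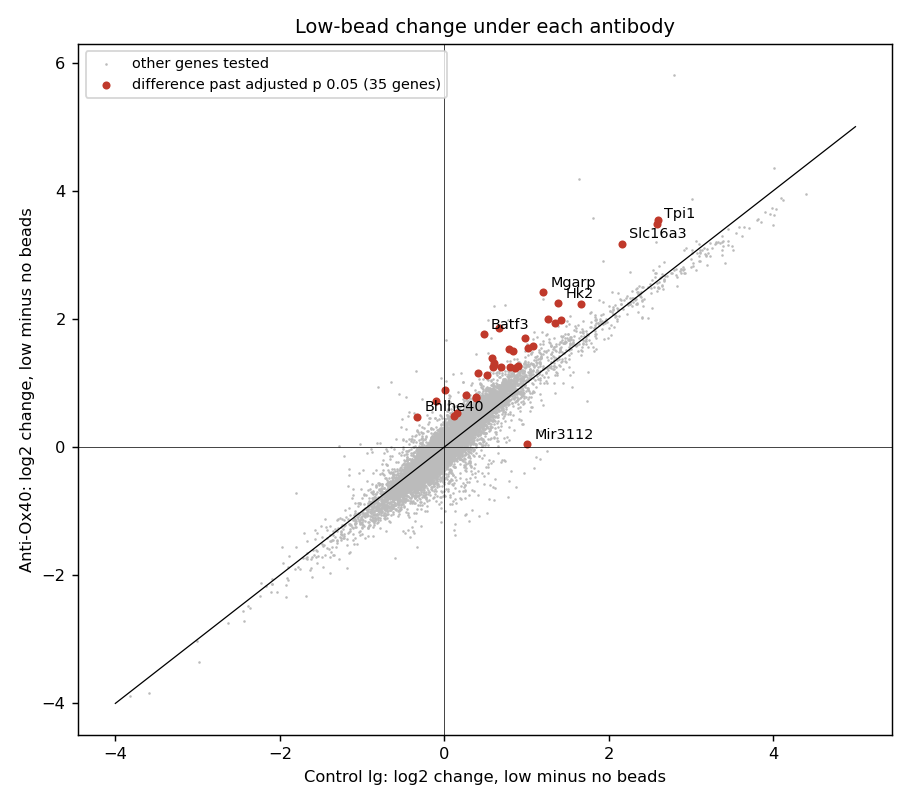
Log2 change with low beads under anti-Ox40 (vertical axis) against the change in control Ig (horizontal axis) for 13075 genes tested, with a diagonal of equal change and the 35 genes whose changes differed in red. Of the 35, 34 lie above the diagonal, among them Slc16a3, Hk2 and Bhlhe40, and Mir3112 lies below it.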

How the data were processed

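RNA was sequenced from 18 libraries of cultured splenic CD4 T cells. The authors deposited 1 table of nRPKM values, read here as RPKM with a further normalization. Its steps, the counting and the annotation are not stated in the labels. Alignment with GSNAP to GRCm38 is named in the submitters' processing notes. Per the labels' protocols, 100 to 500 ng of RNA entered each library. The table has 36528 entries, 6 without a symbol.

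Values were taken to log2(nRPKM + 1), which understates fold changes of low genes. The 13075 genes that reached 1 nRPKM in 3 or more of the 18 libraries were kept. A limma 3.58.1 fit (R 4.3.3; lmFit, contrasts.fit, eBayes with a trend) gave each of 6 groups a mean, with 12 residual degrees of freedom, and p-values were Benjamini-Hochberg adjusted over all genes tested and called under 0.05, 2-sided. No count test was run, since no counts were used here. Low minus no beads in control Ig was the main contrast; the others are low minus no beads under anti-Ox40, the difference of both, and high minus low beads. The scale of reads per nRPKM came from microRNA hairpins with 1 locus, of which 952 were present. In each library only those with low values above 0 were used, 220 to 293 of them. Of these, 100% fell on whole multiples within 0.1 read in every library. Intervals for other noise cannot be had from this scale. The fit was tested on simulated data.

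Named genes were a list of key genes, the 15 largest called increases and decreases with separate libraries, up to 4 called genes in each direction of each list, the 10 largest differences in each direction, and list members that were at 0, against the direction of their list or not called; predicted genes and LOC symbols were passed over. Other list members named for their role (Cdc6, Ccnd3, Cenpa, Egr3, Eomes, Hif1a, Tnf, Srebf1 and the like), and the genes outside the lists, were chosen after their values were seen. The gene lists and this rule were chosen with earlier results of these data known. Alternatives changed the pseudocount (0.1, 0.5), the filter (none, 5), the trend, the libraries in the fit, the scaling, a replicate block and each library in turn; leaving out the 2 libraries highest in B cell markers was chosen after seeing the data. Some list members are counted but not reported here by name. Symbols were matched to RefSeq (GRCm38.p6) for coordinates and promoters.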

Additional observations from a re-analysis of the deposited data

Results flagged for a closer look

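The change with low beads differed between anti-Ox40 and control Ig, by a test of the difference itself in limma, for 35 genes. The largest differences (anti-Ox40 minus control Ig, log2) were those of the transcription factor gene Batf3 (1.28, adjusted p = 0.00785), the mitochondrial protein gene Mgarp (1.21, adjusted p = 0.000157), the prolyl hydroxylase gene Egln3 (1.19, adjusted p = 0.00162), the lactate exporter gene Slc16a3 (1.01, adjusted p = 3.89e-05) and Tpi1 (0.90, adjusted p = 0.000375). They were followed by the lipid droplet gene Hilpda (0.88), Hk2 (0.87), Deb1 (0.82), Bhlhe40 (0.81) and the adenylate kinase gene Ak4 (0.80). The microRNA gene Mir3112 had the 1 difference in the other direction (-0.96, adjusted p = 0.0368). Hilpda changed by 0.89 with low beads under anti-Ox40 and by 0.01 in control Ig, where it was not called. Mir3112 changed by 0.04 under anti-Ox40 and by 1.01 in control Ig, with 5.57, 4.47 and 4.66 nRPKM in the low-bead and 1.38, 2.14 and 2.35 in the no-bead libraries of control Ig. Of these 11 genes 8 kept their call under every setting tried and 3 lost it under some, namely Batf3, Deb1 and Mir3112. With any 1 library left out Batf3 kept its call. Deb1 lost it without control Ig no-bead replicate 2, anti-Ox40 low-bead replicate 3 or anti-Ox40 no-bead replicate 1 or 2 (differences of 0.74 to 0.83). Mir3112 lost it without any 1 of 9 libraries, all but control Ig low-bead replicate 2, control Ig no-bead replicate 3 and anti-Ox40 no-bead replicate 3 (differences of -1.02 to -0.81).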

How the results depend on the processing

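The count of genes changed by low beads (8152) lay between 6597 (filter at 5) and 8910 (no filter) under every setting, and between 7494 and 7837 with any 1 library of the comparison left out. Of 213 named genes called, 187 kept the call under all settings run and 26 lost it under some; no called value changed sign. Of 1110 list counts 1043 stayed within 1.5 times. The 35 genes whose bead response differed became 17 with only the 4 groups compared in the fit, 16 without the 2 libraries highest in B cell markers, and 19 to 1866 with any 1 library left out. The cause was not tested.

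Scaling libraries by median ratios (factors 0.972 to 1.05) gave 8232 calls, 49.5% of them higher against 52.3%, and a median change of -0.01. The labels do not say that replicate numbers pair libraries; deviations of low- and no-bead libraries of the same number correlated at 0.08, 0.06 and 0.22. With the replicate block 8379 genes were called for low against no beads and 50 for the difference. All 18 of 18 libraries matched best with 1 of their own number in another group, which is a hint from the data, not the design. Depth limits genes near 1 nRPKM and short ones most, such as microRNA genes.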

Other observations

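Most of the 15 largest increases belonged to the lists, but some large ones lay outside them. Igfbp4, which encodes a binding protein of insulin-like growth factors, was 107, 184 and 125 nRPKM in the low-bead and 6.57, 7.89 and 7.90 in the no-bead libraries of control Ig (log2 4.01, SE 0.21, adjusted p = 1.57e-10, limma), and it averaged 149 ± 27.5 with high beads (SD, n = 3). Separate groups were a condition for naming these genes, and low-bead replicate 2 was highest for Igfbp4. Most others serve division as well: Cdca8 (3.58) belongs to the chromosomal passenger complex, Ncaph (3.55) to condensin, Esco2 (3.51) to the machinery of sister chromatid cohesion and Clspn (3.29) to the replication checkpoint. Mxd3, a member of the Myc and Max network, was 15.4, 19.5 and 17.9 with low beads and 0.620, 0.492 and 0.801 without (log2 3.50).

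The decreases outside the lists were led by genes of phagocytes. Sirpa, the receptor for the CD47 signal, was 0.829, 0.692 and 0.684 nRPKM with low beads and 8.30, 8.62 and 8.49 without (log2 -2.45, SE 0.08, adjusted p = 5.44e-13, limma), and Tgfbi (-2.36), Clec4d (-2.23), Lgals3 (-2.17), Hmox1 (-1.97) and Mmp12 (-1.90) fell too, alongside the myeloid markers. Hmox1 averaged 21.7 ± 1.55 without beads, 4.82 ± 0.477 with low and 12.1 ± 1.499 with high beads, so it did not follow Sirpa (8.47 ± 0.162, 0.735 ± 0.0815 and 0.116 ± 0.0422) down at the second step. Maged1 was 4.48, 2.85 and 3.01 with low beads and 22.1, 13.9 and 18.3 without (log2 -2.10), and Cpne7 was 9.96, 5.56 and 6.73 with low beads and 36.4, 28.1 and 27.3 without (log2 -1.93). Xist, the X-inactivation RNA expected in cells of females, was 148, 83.9 and 143 with low beads and 57.7, 65.8 and 64.0 without (log2 0.95), with low-bead replicate 2 nearest to the no-bead libraries.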
